A study of Mus musculus with 6 samples.

Results

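The miRNA miR-21a was followed through both arms of its hairpin, mmu-miR-21a-5p and mmu-miR-21a-3p, in mouse 3T3-L1 adipocytes exposed to interleukin-6 (IL-6). The prefix mmu, for mouse, is left out below. The arms were taken by name among the mouse features of each array, which gave 2 of 1247 miRNAs and 6 of 3105 probes. Both arms were among the 299 miRNAs tested. 3T3-L1 is an established line of mouse embryonic fibroblasts that turns into fat cells under hormones. The 2 IL-6 samples had recombinant IL-6 at 1 ng/ml from the start of differentiation, with fresh medium and cytokine every day, and the 4 control samples were untreated. Both groups shared the line, the inducing mixture of isobutyl-methylxanthine, dexamethasone, insulin and rosiglitazone, and harvest on day 8. Each sample of total RNA was labelled with Cy3 and hybridised to its own 1-colour Agilent miRNA array. The labels name no separate cultures for the replicates, so a p-value covers only how far these samples vary, and that variation may be technical. The small number of arrays limits the precision. In such bulk RNA, fewer cells of a type and less RNA per cell cannot be told apart.

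IL-6 acts through a receptor complex that activates the kinases of the JAK family and the transcription factor STAT3. In human myeloma cells STAT3 binds an enhancer upstream of the miR-21 gene and raises its transcription. The 5p arm is the guide strand that is loaded into Argonaute and represses targets such as Pdcd4, and the 3p arm is the strand that is mostly discarded. In human adipose-derived stem cells miR-21 promotes adipogenic differentiation by lowering the TGF-beta receptor TGFBR2.

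The sequences below show what the probes had to tell apart. The mouse Mir21a hairpin lies on chr11:86584067-86584158 on the minus strand (GRCm38.p6, RefSeq), inside the bounds of Vmp1, a gene for a membrane protein of autophagy, and 209 bases from the boundary of that gene at the lower coordinate. The 5p arm occupies chr11:86584120-86584141 and the 3p arm chr11:86584082-86584103. In the hairpin, capitals mark the 5p arm (bases 18 to 39) and then the 3p arm (bases 56 to 77).
Mir21a hairpin: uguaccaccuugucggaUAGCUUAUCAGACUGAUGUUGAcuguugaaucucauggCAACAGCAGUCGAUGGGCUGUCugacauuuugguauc
In the mature miRNAs, capitals mark the seed, bases 2 to 8, which pairs with targets.
miR-21a-5p: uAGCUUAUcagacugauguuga
miR-21a-3p: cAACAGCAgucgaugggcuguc
miR-21c: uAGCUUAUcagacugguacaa
miR-21b: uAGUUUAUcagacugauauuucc
The last 2 are the near-identical mouse miRNAs listed on the same array, from chr8:128278188-128278208 on the minus strand and chr3:29636768-29636790 on the plus strand. Against miR-21a-5p, counted from the 5′ end and with the miR-21a-5p base first, miR-21c differs by A16G, G18A, U19C, U20A and G21A and shares the seed. miR-21b differs by C4U, G18A, G21U and A22C, so its seed is another. Among 1738 mature sequences in the RefSeq table, miR-21c was the only other one with the seed of the 5p arm, and none shared that of the 3p arm. These sequences covered 1017 of the 1247 miRNA names on the array. miR-590-5p was not among them, so its seed was not compared, and other miRNAs with either seed may have been missed.

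The 5p arm was read by a pair of nested probes and the 3p arm by 4, all complementary to the 3′ end of their arm and differing in how far they reach into it. The longer 5p probe covers bases 3 to 22 and the shorter bases 4 to 22, so each leaves out part of the seed.
20-base 5p probe: tcaacatcagtctgataagc
19-base 5p probe: tcaacatcagtctgataag
15-base 3p probe: gacagcccatcgact
12-base 3p probe: gacagcccatcg
longer miR-21c probe: ttgtaccagtctgataagc
longer miR-21b probe: ggaaatatcagtctgataaac
The longer miR-21c and miR-21b probes each contain a run of 13 bases complementary to miR-21a-5p. Neither of these miRNAs was detected: 0 of 226 spots for miR-21c and 0 of 232 spots for miR-21b were well above background over the 6 arrays. Probe means before scaling lay between -2.05 and -0.25 intensity units for miR-21c and between -0.98 and 1.76 for miR-21b. The bright miR-21a-5p signal on the same arrays was therefore not accompanied by signal on the probes of its near-identical namesakes. miR-590-5p was likewise not detected, with 0 of 236 spots well above background.

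Detection was secure for the 5p arm, while the 3p arm was dim and its detection depended on the probe. For miR-21a-5p, all 224 spots that entered were well above background, and the raw spot signal was 300.1 to 434 times the local background on the 6 arrays. For miR-21a-3p, 155 of 234 spots were, and the raw signal was 2.26 to 2.98 times the local background over all its probes. The 14-base and 15-base 3p probes each had 60 of 60 spots well above background. The 13-base probe had 34 of 57 and the 12-base probe 1 of 57. No spot of either arm was saturated. Probes bind with unlike strength, so the level of the 5p arm cannot be set against that of the 3p arm, and each arm is compared with itself between arrays.

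Before any scaling between arrays, miR-21a-5p averaged 8603 ± 1045 units with IL-6, against 7817 ± 1121 units in controls (SD). The background-subtracted intensity was 9342 and 7865 units on IL-6 arrays 1 and 2, against 7961, 8973, 6281 and 8051 units on control arrays 1 to 4. The groups overlapped, with control array 3 the dimmest and IL-6 array 1 the brightest.

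Each array was then divided by a scaling value, the 75th percentile over the 502 probes that every array detected. It was 440 and 369 units on the IL-6 arrays, against 347, 396, 248 and 343 units on control arrays 1 to 4. The scaled intensity of miR-21a-5p was 7584 and 7608 units with IL-6, against 8204, 8100, 9037 and 8377 units in controls. Both IL-6 arrays lay below all 4 controls. The groups no longer overlapped, and the IL-6 arrays were nearly equal. On the log2 scale the level was 12.89 ± 0.0031 with IL-6 (SD, n = 2), against 13.04 ± 0.071 without it (SD, n = 4). The difference was -0.15 ± 0.067 SE, a change of -9.80%, and it did not pass the threshold of 0.05 (limma adjusted p = 0.244, unadjusted p = 0.0678, Benjamini-Hochberg over 299 miRNAs). Among the 15 ways to split the arrays into 4 and 2, the exact permutation test (two-sided) gave p = 0.0667, the smallest that this design allows.

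The 95% interval of the difference ran from -0.31 to 0.01, or from -19.5% to 1.04%. A p that misses the threshold does not show that IL-6 left miR-21a-5p as it was. All 8 pairings of an IL-6 array with a control array gave a lower value with IL-6, between -0.25 and -0.09.

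**Figure D1:**
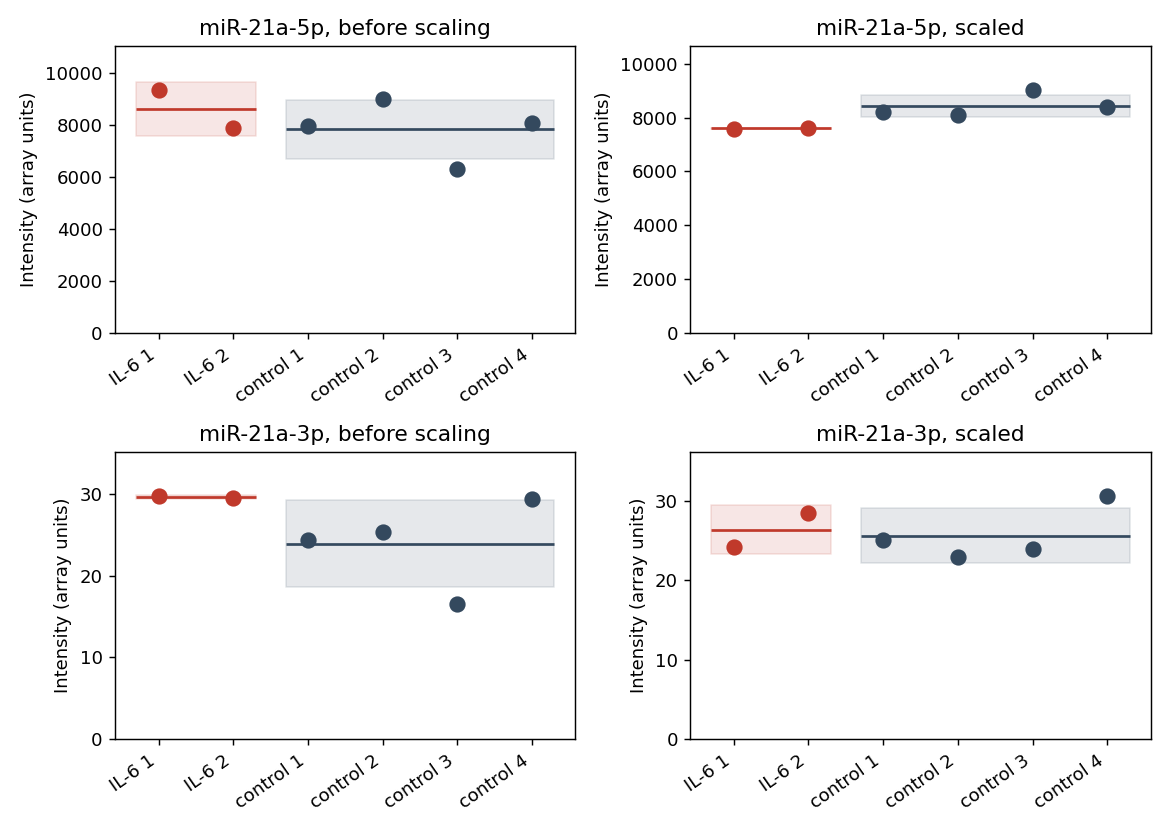
Intensity of miR-21a-5p (top) and miR-21a-3p (bottom) on each array before scaling (left) and after scaling to the 75th percentile of commonly detected probes (right), on axes that start at 0; lines are group means and bands are 1 SD. Scaled miR-21a-5p was 7584 and 7608 units on the IL-6 arrays and at least 8100 on every control array, while the groups overlapped before scaling and for miR-21a-3p after it.

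The direction for miR-21a-5p depended on what the arrays were scaled to. Without scaling the difference was 0.14 (95% interval -0.36 to 0.65), and with hybridisation spike-ins as the standard it was 0.15 (-0.39 to 0.69), where the main scaling gave -0.15. Those settings also moved the median of all tested miRNAs, to 0.27 and 0.28, from -0.02 with the main scaling. Relative to that median, miR-21a-5p stood at -0.12 without scaling, at -0.12 with the spike-ins and at -0.13 with the main scaling. A single factor per array shifts all miRNAs nearly alike, so these settings, or scaling on all mouse probes, could hardly change that position. Over the 23 alternatives that were fitted across all miRNAs, miR-21a-5p lay below the median in 23, by 0.06 to 0.18. Those that change only this factor or the trend are nearly repeats in that count. The sign of the difference of miR-21a-5p itself was not shared.

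At the extremes, the scaling value and the scaled level of miR-21a-5p ran in opposite directions. Control array 3 had the lowest scaling value (248 units) and the highest scaled miR-21a-5p (9037 units), and IL-6 array 1 had the highest scaling value (440 units) and the lowest scaled miR-21a-5p (7584 units). The IL-6 arrays had scaling values of 440 and 369 units, against 248 to 396 units in controls. The part of the scaling value in the difference was not tested beyond the alternative settings. All arrays were on 1 slide and in 1 scan, with the IL-6 arrays in slide row 2 and the controls in row 1, so slide row and treatment cannot be told apart. Columns 3 and 4 held both groups. The difference was -0.25 within column 3, where IL-6 array 1 stood beside control array 3, and -0.14 within column 4. With column as a block it was -0.20 (limma adjusted p = 0.331).

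**Figure D2:**
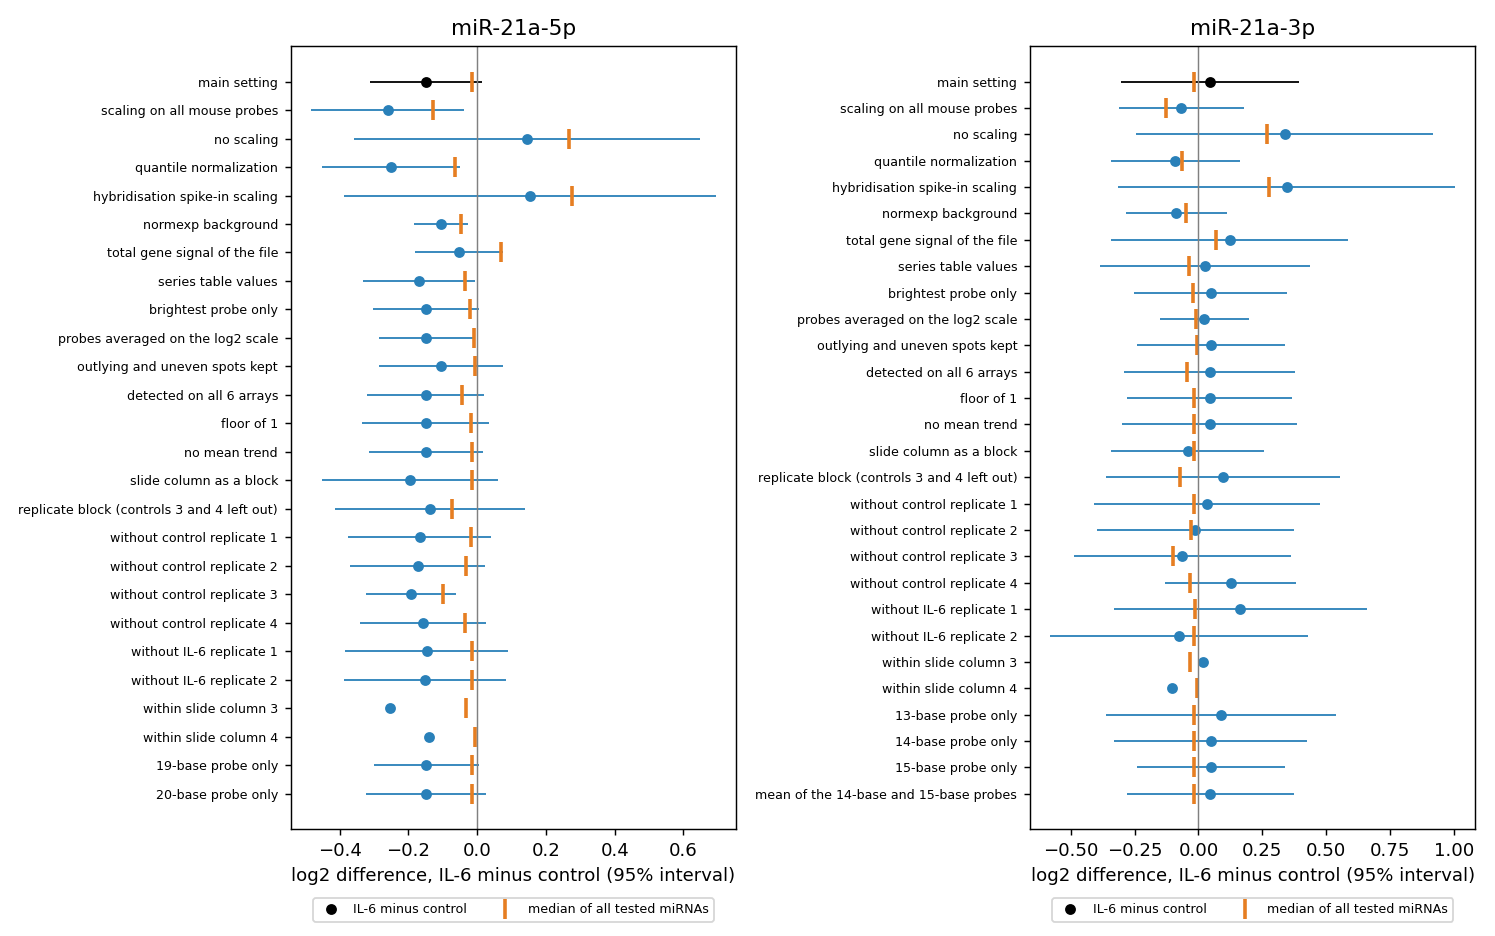
Log2 difference, IL-6 minus control, for each arm under the main and the alternative settings, with limma's 95% interval where a fit was made; orange ticks are the median difference of all tested miRNAs under the same setting. For miR-21a-5p the point moved from -0.26 to 0.15 with the scaling. It stayed left of the tick, a position that a single factor per array hardly changes. For miR-21a-3p the points lay on both sides of 0.

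The nested probes of the 5p arm also differed little from each other in their response. The 20-base probe read 9035 and 8952 scaled units with IL-6, against 9675, 9613, 10823 and 9835 units in controls. The 19-base probe read 6134 and 6263 scaled units with IL-6, against 6732, 6586, 7252 and 6918 units in controls. With either probe both IL-6 arrays lay below all 4 controls. The difference was -0.15 with the 20-base probe alone and -0.15 with the 19-base probe alone, and neither passed (limma adjusted p = 0.265 and 0.231). Within an array, the spots of a 5p probe varied with a coefficient of variation of 3.64% to 8.13%.

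miR-21a-3p, the strand that is usually degraded, showed no shift in a single direction. Its scaled intensity was 24.2 and 28.5 units with IL-6, against 25.1, 22.9, 23.9 and 30.6 units in controls. The highest value belonged to control array 4 and the groups overlapped. On the log2 scale the level was 4.71 ± 0.17 with IL-6 (SD, n = 2), against 4.67 ± 0.19 without it (SD, n = 4). The difference was 0.04 ± 0.14 SE and did not pass (limma adjusted p = 0.901, exact two-sided permutation p = 0.867). Its 95% interval, from -0.30 to 0.39, reached from 0.810-fold to 1.31-fold, so the 3p arm was measured less precisely than the 5p arm. Without IL-6 array 1 the difference was 0.16, and it was -0.076 when IL-6 array 2 was left out instead.

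The 3p probes differed in how well they detected their target. The 14-base and 15-base probes were detected on all 6 arrays, the 13-base probe on 5, with control array 3 the exception, and the 12-base probe on none. The 15-base probe read 44.6 and 49.9 scaled units with IL-6, against 44.0, 41.6, 44.7 and 53.0 units in controls. The groups overlapped for it as for the arm as a whole. Taken alone, the detected probes gave differences of 0.05 with 15 bases, 0.05 with 14 and 0.09 with 13. The 12-base probe, with 1 of 57 spots well above background, gives none. The mean of the 14-base and 15-base probes gave 0.05.

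**Figure D3:**
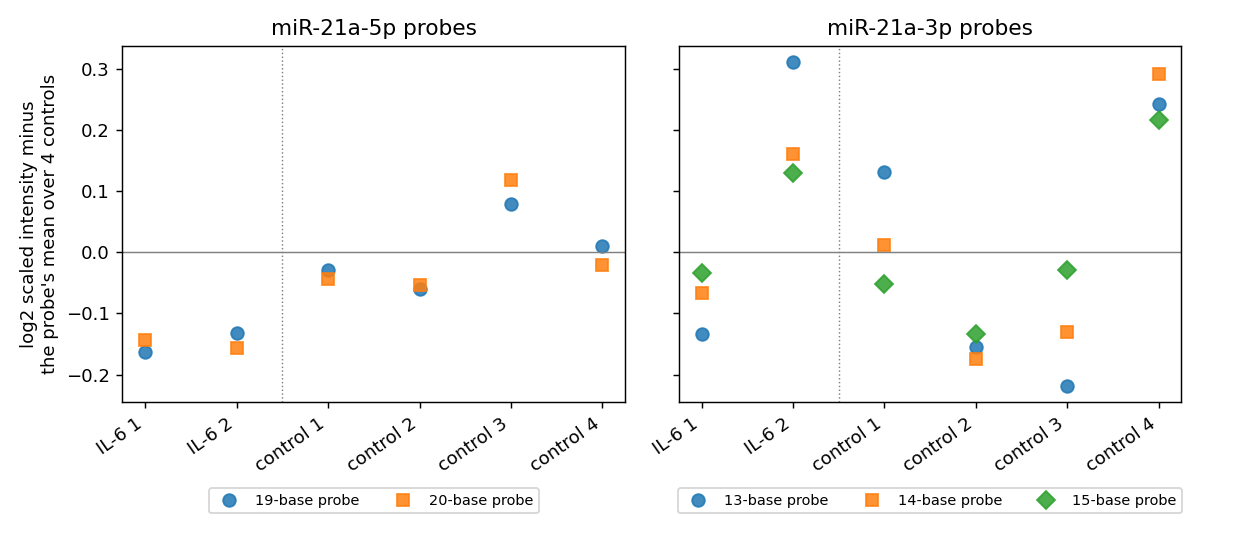
Log2 scaled intensity of each probe on each array, minus that probe's mean over the 4 control arrays, for the pair of 5p probes (left) and the 3p probes detected on any array (right); each point is the mean of the spots of a probe on an array. The 5p probes moved together and were both lower on the IL-6 arrays after this scaling, though not without it, while the 3p probes were spread more widely, with control array 4 the highest control for each of them.

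Whether IL-6 altered the balance of the arms was asked by subtracting the log2 value of the 3p arm from that of the 5p arm on each array, which no single scaling factor per array can change. This difference was 8.29 and 8.06 on the IL-6 arrays, against 8.35, 8.47, 8.56 and 8.10 on the control arrays. It is a contrast of probes and not a ratio of amounts. The groups overlapped, since control array 4 lay below IL-6 array 1. IL-6 minus control was -0.19, with 8.18 ± 0.17 (SD, n = 2) against 8.37 ± 0.20 (SD, n = 4), and an exact two-sided permutation test gave p = 0.267. It was below 0 in all 21 alternatives, from -0.31 to -0.02, with the smallest size under normexp background correction. Those that change only the scaling factor, the filter, the floor or the trend repeat the main -0.19, so they add nothing to this count.

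Set against all 299 tested miRNAs, neither arm stood apart. By the adjusted threshold 0.334% of tested miRNAs were called, a single one, and neither arm was among them. Both IL-6 arrays lay below all 4 controls for 21.7% of tested miRNAs, among them miR-21a-5p. At an unadjusted p under 0.05 in the main setting, 22.7% of tested miRNAs were called (limma), and neither arm was. Of the tested miRNAs, 72 had a lower difference than miR-21a-5p and 82 a smaller p. The standard error of miR-21a-5p was among the smaller ones, with 22 miRNAs below it, and was 0.07 where the median over all miRNAs was 0.11. For miR-21a-3p, 196 of the tested miRNAs had a lower difference and 231 a smaller standard error.

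**Figure D4:**
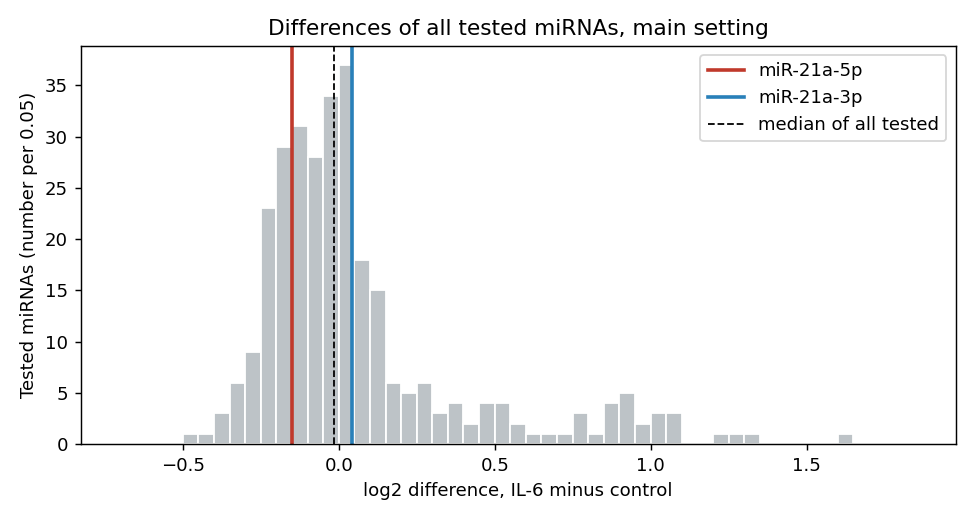
Histogram of the log2 difference, IL-6 minus control, of all 299 tested miRNAs in bins of 0.05, with lines at miR-21a-5p (-0.15), miR-21a-3p (0.04) and the median of all (-0.02). Both arms lay in the central bulk of the distribution.

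Other miRNAs that have been tied to IL-6 and STAT3 did not pass either. Of 25 such miRNAs in 4 lists, miR-21a included, 19 were tested and detected on all 6 arrays, and 6 were detected on none, among them miR-146a-5p, a brake on NF-kB signalling. None of the 19 passed (limma), 9 had a difference above 0 and 10 below, and the median was -0.0044, beside -0.02 over all tested miRNAs, of which 134 were above 0 and 165 below. At an unadjusted p under 0.05 there was 1 of 19, against the 22.7% of all tested miRNAs.

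The 11 miRNAs reported as induced by STAT3 were all tested, with 5 above 0, 6 below and a median of -0.01, and with 11 above 0 without scaling or with spike-ins and none above 0 with scaling on all mouse probes. With quantile normalization 1 was above 0 and 10 were below. Of the 11, 5 lay below the median of all tested miRNAs with the main scaling, a count that 1 factor per array hardly changes, and 7 with quantile normalization. Their largest differences belonged to miR-23a-3p and miR-21a-5p. miR-23a-3p, reported as induced by IL-6 and STAT3 in human liver cancer cells, averaged 11.18 ± 0.092 on the log2 scale in the 2 IL-6 samples, against 11.34 ± 0.13 in the 4 control samples (SD). It thus differed by -0.16 (limma adjusted p = 0.360). The highest value among the 11 was that of miR-181b-5p, at 0.09, which like miR-21 is a STAT3 target in transformed human cells. The 6 members of the miR-17 to miR-92a cluster lay between -0.12 for miR-20a-5p and 0.03 for miR-17-5p.

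Among miRNAs reported as lowered by IL-6 or STAT3, miR-199a-5p differed by -0.0044 and miR-34a-5p, a p53-induced miRNA, by 0.0068. Of 10 miRNAs reported to target Stat3, Il6, the IL-6 receptor or Socs genes, 6 were tested, with 3 above 0 and 3 below, and 3 on the lower side of the median of all tested miRNAs. miR-155-5p, which represses Socs1, an inhibitor of JAK signalling, averaged 6.93 ± 0.13 on the log2 scale in the 2 IL-6 samples, against 7.27 ± 0.075 in the 4 control samples (SD). It differed by -0.35 (limma adjusted p = 0.0859). miR-125b-5p, reported to target Stat3, differed by -0.10.

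**Figure D5:**
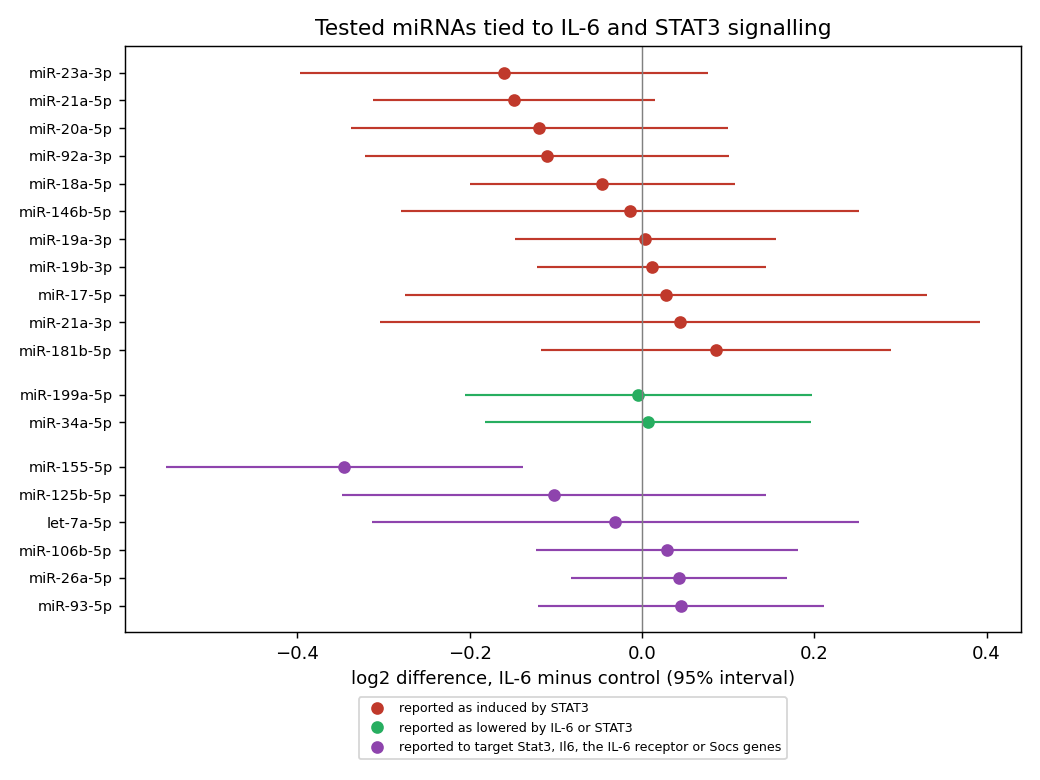
Log2 difference, IL-6 minus control, with limma's 95% interval, for the 19 tested miRNAs of the IL-6 and STAT3 lists, coloured by list. The points of the 11 reported as induced by STAT3 lay between -0.16 and 0.09 with the main scaling, with 5 above 0 and 6 below; all 11 were above 0 without scaling.

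The miRNAs whose profile over the 6 arrays was nearest to that of miR-21a-5p were found by the root-mean-square distance of log2 values after each miRNA's own mean was subtracted. They were miR-101b-3p (distance 0.02), which targets the histone methyltransferase Ezh2, miR-30a-5p (0.03), an adipocyte marker below, of a family that promotes adipogenesis in human cells, miR-324-5p (0.03), miR-24-3p (0.04), from the clusters of miR-23 and miR-27, and miR-186-5p (0.04). The median distance over the 298 other tested miRNAs was 0.14. Like miR-21a-5p, all 5 were highest on control array 3, which had the lowest scaling value, and the arrays and scaling factors are shared between the profiles. Their differences between groups were -0.14, -0.20, -0.11, -0.15 and -0.08 in the same order, and none passed (limma). The 5 were chosen on these same 6 arrays, so their likeness to miR-21a-5p in highest array and in difference follows from the choice. miR-21a-3p, from the same hairpin, was at distance 0.18 and ranked 204 of 298, with its highest value on control array 4.

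Marker miRNAs of adipocytes and of other cell types were looked up on the arrays. All samples were harvested on day 8, so detection of adipocyte markers cannot tell adipocytes from undifferentiated cells of the line. Of 5 linked to adipocytes, 4 were detected on all 6 arrays (miR-143-3p, miR-378a-3p, miR-103-3p and miR-30a-5p), and miR-335-5p on none. All 4 had a difference below 0 with the main scaling, with a median of -0.19, though 3 of the 4 were above 0 without scaling or with spike-ins. Over all tested miRNAs, 55.2% were below 0 with the main scaling. All 4 lay below the median of all tested miRNAs under the main scaling and with quantile normalization. The same held with all mouse probes, no scaling or spike-ins, but a single factor per array hardly changes this position. None of the 4 passed (limma, lowest adjusted p = 0.0845 with the main scaling). At an unadjusted p under 0.05 there were 3 of 4 with that scaling, against 22.7% of all tested miRNAs. For 3 of the 4 both IL-6 arrays lay below all controls, against 21.7% of all tested miRNAs. The lists were chosen with earlier results of these data known. The part of these adipocyte markers in the difference of miR-21a-5p, -0.15, was not tested. Of 13 markers of muscle, blood, neural, liver, endothelial and epithelial cells, 13 were detected on no array. Most miRNAs were not detected either, since an array detected 268 to 313 of the 1247. The absence of these markers thus says little about other cell types.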

How the data were processed

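The authors' deposited scanner files hold intensity values per spot from Agilent Feature Extraction 10.10.1.1. Per the file headers, a spatially fitted background was subtracted and no surrogate replaced dim spots. The deposited spot flags mark spots well above background, uneven, outlying or saturated. The deposited series table holds linear, uncentred intensity values equal to the scanner's total probe signal (largest difference 0), with column medians of 0.0727 and 0.117 for IL-6 and 0.0937, 0.104, 0.0777 and 0.0781 for controls. A later normalization is, in the sources used here, not given.

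Control spots and spots flagged as uneven or outlying were left out, and the other spots of a probe were averaged. Detection of a probe required that its share of spots flagged well above background reach 0.5. Arrays were scaled to the 75th percentile of the 502 probes detected on all arrays. The value of a miRNA was the linear mean over its probes, values under 6.25 units were set to that floor, and log2 was taken. miRNAs with detection on both IL-6 arrays or all 4 controls were tested with limma 3.58.1 in R 4.3.3 (lmFit, eBayes with a mean trend, two-sided, all 6 arrays, no covariates, Benjamini-Hochberg). The fit was also run on simulated data. These had independent noise for each miRNA and no error shared across an array, so they cannot speak to the choice of scaling. Named miRNAs are both arms, near-identical or same-seed miRNAs, list members that passed or else the 2 with the largest difference in each list, and the 5 nearest profiles. Others were named to complete a list or after their values were seen. Members and lists were chosen with earlier results of these data known. Sequences and positions are RefSeq's (GRCm38.p6), where both arms matched, and probe sequences are the files'.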

Additional observations from a re-analysis of the deposited data

Results flagged for a closer look

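Among the 4 control arrays, 1 array stood far from the others for 3 of the 33 values examined. These were the arms, their detected probes, their difference, the tested members of the lists and the nearest profiles. The gap to the nearest array, as a share of the whole range, was 0.877 for miR-23a-3p and 0.891 for miR-146b-5p, both with control array 4 apart, and 0.855 for miR-106b-5p, with control array 3 apart. All 3 exceeded Dixon's 95% critical value for 4 arrays, and chance flags about 1 in 20 such groups. Neither arm of miR-21a passed it, with shares of 0.693 for miR-21a-5p, where control array 3 was farthest, and 0.683 for miR-21a-3p, where control array 4 was farthest.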

How the results depend on the processing

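Of 25 alternatives for miR-21a-5p, 23 kept a difference below 0, and none brought it past the threshold (limma adjusted p between 0.103 and 0.766). The unadjusted p ran from 0.0140 without control array 3 to 0.556 with spike-ins (limma), so whether it fell under 0.05 depended on the setting. The difference of miR-21a-5p was 0.14 without scaling and 0.15 with spike-in scaling. The lowest, -0.26, came from scaling on all mouse probes, where the median over all miRNAs was -0.13. Both IL-6 arrays lay below all controls in 20 of the 23 fits and not without scaling, with spike-ins or with the file's total gene signal (-0.05). Leaving out each array gave -0.19 to -0.15. For miR-21a-3p, 19 of 27 alternatives kept a difference above 0. It was -0.067 with scaling on all probes, -0.090 with quantile normalization, -0.086 with normexp, -0.042 with slide column as a block and -0.10 within column 4, and leaving out each array gave -0.076 to 0.16. It was below 0 without control array 2 (-0.01), control array 3 (-0.06) or IL-6 array 2. The arm difference, left out array by array, ran from -0.31 to -0.08. The number of miRNAs past the threshold, 1 in the main setting, was 34 without scaling, 31 with spike-ins, 2 with all probes, 3 with total gene signal, 2 with the brightest probe, 4 with log2 averaging, 7 with a floor of 1, and 0 with normexp, the series table, detection on all 6 arrays or the column block (limma; 30, 79, 56 and 50 at an unadjusted p under 0.05). Leaving out arrays gave 0 to 31, with 31 without control array 4, 0 without control array 3 (96 at an unadjusted p under 0.05), and, among IL-6 arrays, 5 without array 1 and 4 when array 2 was left out. The causes were not tested. With replicate number as a block, controls 3 and 4 left out, 10 passed, miR-21a-5p was at -0.14 (limma adjusted p = 0.465), miR-21a-3p at 0.10 and the arm difference at -0.23. The difference of control array 1 from control array 2 and that of IL-6 array 1 from IL-6 array 2 had a correlation of -0.33 over 299 miRNAs. With a single such contrast per group, this cannot decide whether the numbers pair the samples. Where 1 IL-6 array is left, it is assumed to vary like the controls. The setting with no filter could not be fitted, since 911 of 1247 miRNAs sat at the floor on all arrays. The single-probe settings were chosen after seeing the data, and the 12-base probe, detected on no array, was left out of them. Signal close to background limits miR-21a-3p.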

Other observations

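The spots left out of miR-21a-5p were not spread evenly over the arrays. Of 40 spots each, 5 and 4 were left out as outlying or uneven on the IL-6 arrays, against 0, 3, 3 and 1 on control arrays 1 to 4. With these spots kept, both IL-6 arrays still lay below all 4 controls, and the difference was -0.10 (limma adjusted p = 0.471), where the main setting gave -0.15.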
